A study of Venturia canescens with 18 samples.

Results

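In the heads of female Venturia canescens, 193 of 16752 loci were lower by a set margin in each of 6 pools of females courted by a male than in any of 3 pools of isolated females, among loci above a minimum level. V. canescens is a parasitoid wasp that was kept on the flour moth Ephestia kuehniella. Virgin females, just emerged, spent up to 10 min with a brother (an incompatible mate), with an unrelated male (a compatible mate) or alone, and RNA from pooled heads was sequenced. Each group held 3 pools, named here brother, unrelated and isolated pools 1 to 3, and each pool was sequenced as 2 technical replicates that were summed. All pools came from a laboratory stock founded with wild-caught wasps. The protocols give 10 heads per condition, without saying whether that is per pool or whether the pools came from separate families or days, so the spread between pools may be technical in part.

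The loci were chosen by their values in these same pools. CPM here are the counts of a locus scaled to the total counts of its pool. A locus had to average at least 5 CPM in the isolated pools, to lie in every courted pool at or under the lowest isolated pool divided by 1.1, and to average in the brother pools at least 0.25 of its isolated mean. Of the 16752 loci 8268 reached 5 CPM, and 193 of those (2.33%) met the condition on the courted pools. All 193 also met the condition on the brother mean, which removed no locus. The lower level against isolation is therefore what the choice required, and it is given below as a description with no test. The comparison of the courted groups with each other was not part of the choice, although both were held under the same ceiling.

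The deposited table names loci by XLOC identifiers only, and a RefSeq table of 14011 V. canescens genes holds none of them, so no gene, protein or pathway can be named for them. For the same reason the head label could not be checked against marker genes. As background, courtship in insects brings odours, sounds and touch to the female, and contact pheromones on the cuticle are a common means of telling kin from non-kin. Wasps are haplodiploid, and in species with single-locus complementary sex determination, V. canescens among them, matings between sibs can give diploid males, which is why a brother is an incompatible mate. In whole heads, the brain, the eyes, the antennal bases, muscle, fat body and glands are measured together, so a lower count cannot tell fewer cells of a type from less RNA per cell.

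Pools held 68571374 to 73839115 counts in the brother group, 65809907 to 103527471 in the unrelated group and 62341897 to 84765233 in the isolated group. The 193 loci were well covered, with 115 to 226023 counts per locus and pool and a median of 2258. Brother pool 1 stood apart from the other pools over the whole table, and the common biological coefficient of variation (the spread between pools of a group beyond counting noise) was 26.3% with it and 13.7% without it. Results that it touches are given with and without it.

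The lowered loci were a modestly changed set. Relative to the mean of the isolated pools, the median locus stood at 0.727, 0.733 and 0.681 in brother pools 1 to 3, at 0.787, 0.809 and 0.774 in unrelated pools 1 to 3, and at 0.995, 0.966 and 1.03 in isolated pools 1 to 3. Isolated pool 2 lay nearest to the courted pools and was the lowest isolated pool for 132 of the 193 loci, while isolated pool 3 was the highest for 129. Over all 8268 loci of at least 5 CPM the same medians were between 0.937 and 1.03 in the 9 pools.

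**Figure D1:**
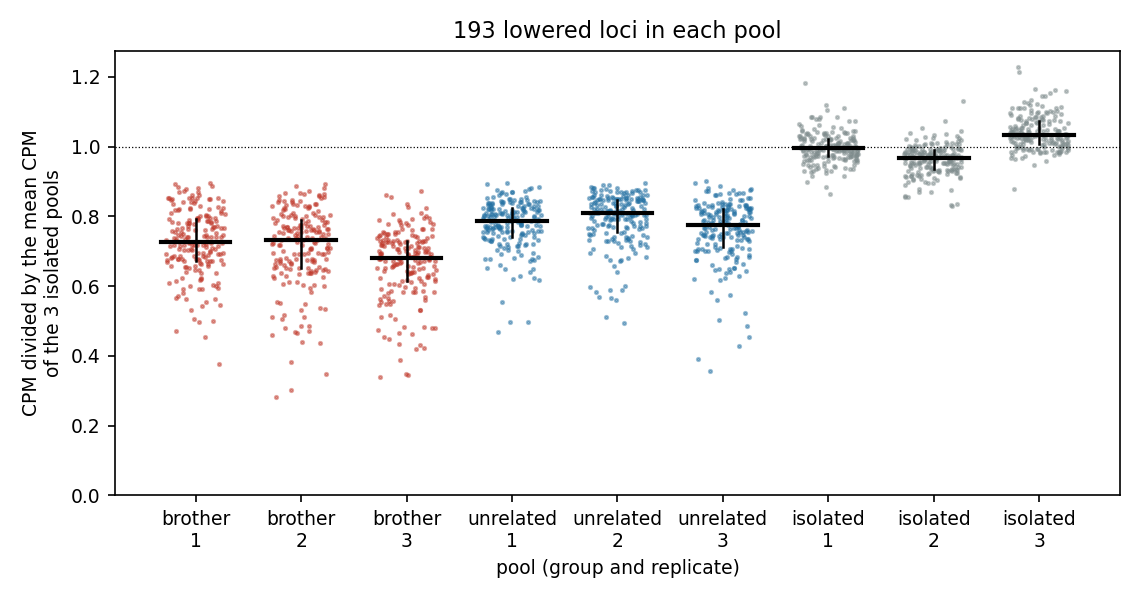
Level of each of the 193 lowered loci in each pool, as CPM divided by its mean CPM in the 3 isolated pools. Each point is 1 locus, horizontal bars are medians (0.681 to 0.733 in brother, 0.774 to 0.809 in unrelated and 0.966 to 1.03 in isolated pools) and vertical bars span the middle quartiles. The gap between courted and isolated pools is set by the choice of loci.

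By group means, the loci were lower than in isolated pools by a median of 29.2% in brother pools, with a range of 14.3% to 58.4%, and by a median of 20.9% in unrelated pools, with a range of 13.1% to 55.1%. Only 7 loci were lower by at least 2-fold in brother pools and 1 in unrelated pools, and that 1 locus was among the 7. A decrease of 25% or more was seen at 145 loci in brother pools, at 47 in unrelated pools and at 45 in both.

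The gap that separated courted from isolated pools was small for most loci. The lowest isolated pool exceeded the highest courted pool by a median factor of 1.14 and by at most 1.60, and it exceeded it by under 1.2 for 158 of the 193. Just inside the limit, XLOC_005182 had a factor of 1.10008. It had 242, 340 and 263 CPM in brother pools, 316, 330 and 331 CPM in unrelated pools, and 374, 399 and 434 CPM in isolated pools. Just outside, XLOC_014402 had a factor of 1.09965, with 47.6, 48.9 and 45.2 CPM in brother pools, 52.8, 53.9 and 52.9 CPM in unrelated pools, and 59.3, 59.4 and 59.8 CPM in isolated pools. Its 3 isolated pools were closer to each other than those of the locus that was kept. A further 636 loci of at least 5 CPM had all courted pools at or under all isolated pools by a factor from 1.0 to under 1.1. At the limit on abundance, XLOC_002300 averaged 5.23 CPM in isolated pools and was kept, and XLOC_009725, at 4.80 CPM, was not.

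The lowered loci were spread over weak and abundant loci much as the 8268 loci were, except at the very top. Their isolated means had a median of 36.0 CPM and ran between 5.23 and 2660 CPM, while the 8268 loci had a median of 41.0 CPM and reached 44623 CPM. Between 5 and 10 CPM lay 13.0% of the lowered loci and 13.1% of the 8268. Between 100 and 1000 CPM the shares were 20.7% and 23.7%, and at 1000 CPM or more they were 3.11% (6 loci) and 1.12% (93 loci). In both courted groups the median decrease was largest in the weakest class. Whether the margin of the rule had a part in this was not tested. In brother pools the median decrease was 33.9% for the 25 loci under 10 CPM, 29.0% for the 87 from 10 to 50 CPM, 27.2% for the 35 from 50 to 100 CPM, 28.1% for the 40 from 100 to 1000 CPM and 28.6% for the 6 above. In unrelated pools the same classes stood lower by 23.8%, 19.8%, 20.1%, 22.2% and 23.2%.

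Together the 193 loci took up a smaller part of the RNA in courted females, as the choice of loci required. They held 1.60%, 1.69% and 1.57% of all counts in brother pools 1 to 3, 1.75%, 1.80% and 1.75% in unrelated pools, and 2.27%, 2.20% and 2.47% in isolated pools. The means were 1.62% ± 0.0629 in brother, 1.76% ± 0.0284 in unrelated and 2.31% ± 0.143 in isolated pools (SD, n = 3 each). The 6 loci of at least 1000 CPM made up 38.8% to 42.5% of that sum in every one of the 9 pools, so the sum reflects both the abundant and the many weaker loci. The technical replicates, which are parts of the same pools, showed the same picture. In the 18 libraries the share was 1.53% to 1.71% in brother, 1.69% to 1.85% in unrelated and 2.14% to 2.51% in isolated libraries.

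**Figure D2:**
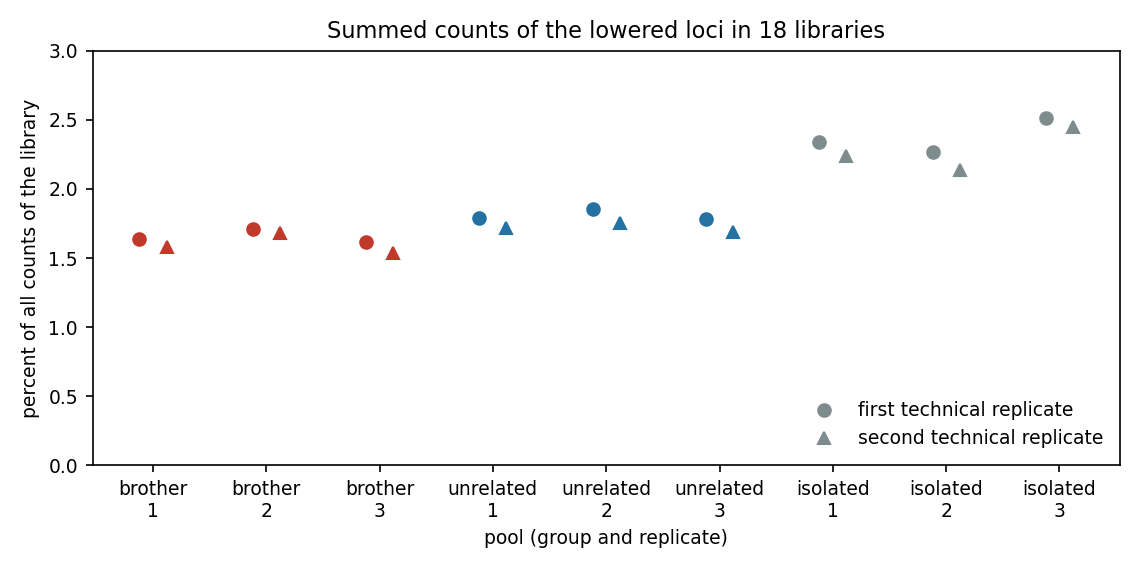
Summed counts of the 193 lowered loci as a percentage of all counts of each library, with circles for the first and triangles for the second technical replicate of a pool. Brother libraries lay at 1.53% to 1.71%, unrelated libraries at 1.69% to 1.85% and isolated libraries at 2.14% to 2.51%. The lower share in courted than in isolated pools is set by the choice of loci.

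The technical replicates also show how firmly single loci were separated. In the first technical replicates taken alone, every courted library lay below every isolated library at 183 of the 193 loci, and in the second at 189, with 180 in common. The full rule, with its margin of 1.1, was met in both separately by 91 of them. All 12 courted libraries lay below all 6 isolated ones at 151 loci. These libraries are parts of the pools that chose the loci and give no independent support.

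Among single loci, the most abundant was XLOC_012176. It had 1811, 1959 and 1935 CPM in brother pools, 1874, 1791 and 2183 CPM in unrelated pools, and 2569, 2419 and 2991 CPM in isolated pools. Both courted groups were low, at 28.5% and 26.7% under the isolated mean, and they overlapped each other. The second most abundant, XLOC_014286, had 757, 854 and 758 CPM in brother pools, 1040, 1092 and 1044 CPM in unrelated pools, and 1634, 1450 and 1727 CPM in isolated pools. Here the groups formed 3 separate steps with no overlap, at 50.7% and 34.0% under isolation in brother and unrelated pools. Its averages were 790 ± 55.7, 1059 ± 28.9 and 1604 ± 141 CPM in brother, unrelated and isolated pools (SD, n = 3 each).

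By the mean over both courted groups, the largest relative decreases were those of XLOC_014437 and XLOC_001788, both weak loci. XLOC_014437 had 3.95, 1.67 and 2.04 CPM in brother pools, 2.95, 2.92 and 2.11 CPM in unrelated pools, and 6.19, 5.46 and 6.11 CPM in isolated pools. Brother pool 1 was the highest courted pool here, well above the other brother pools, and the courted groups overlapped. This is the only locus that was lower by at least 2-fold in both groups. XLOC_001788 had 5.42, 6.74 and 6.91 CPM in brother pools, 7.14, 7.36 and 7.51 CPM in unrelated pools, and 17.0, 12.0 and 14.2 CPM in isolated pools. Its brother pools all lay below its unrelated pools on this scale. It had the widest gap of all 193 loci, a factor of 1.60 between the lowest isolated and the highest courted pool.

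The smallest decreases lay close to the limit that the choice allowed. XLOC_000896 had 107, 103 and 100.01 CPM in brother pools, 111, 111 and 101 CPM in unrelated pools, and 124, 123 and 124 CPM in isolated pools. It was lower by 16.7% in brother and 13.1% in unrelated pools, and its 3 isolated pools had a coefficient of variation of 0.329%. XLOC_002149 had 12.9, 12.2 and 12.5 CPM in brother pools, 12.2, 13.0 and 11.7 CPM in unrelated pools, and 14.4, 14.3 and 15.2 CPM in isolated pools. Such small decreases could enter the set only where the pools of each group were close together.

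**Figure D3:**
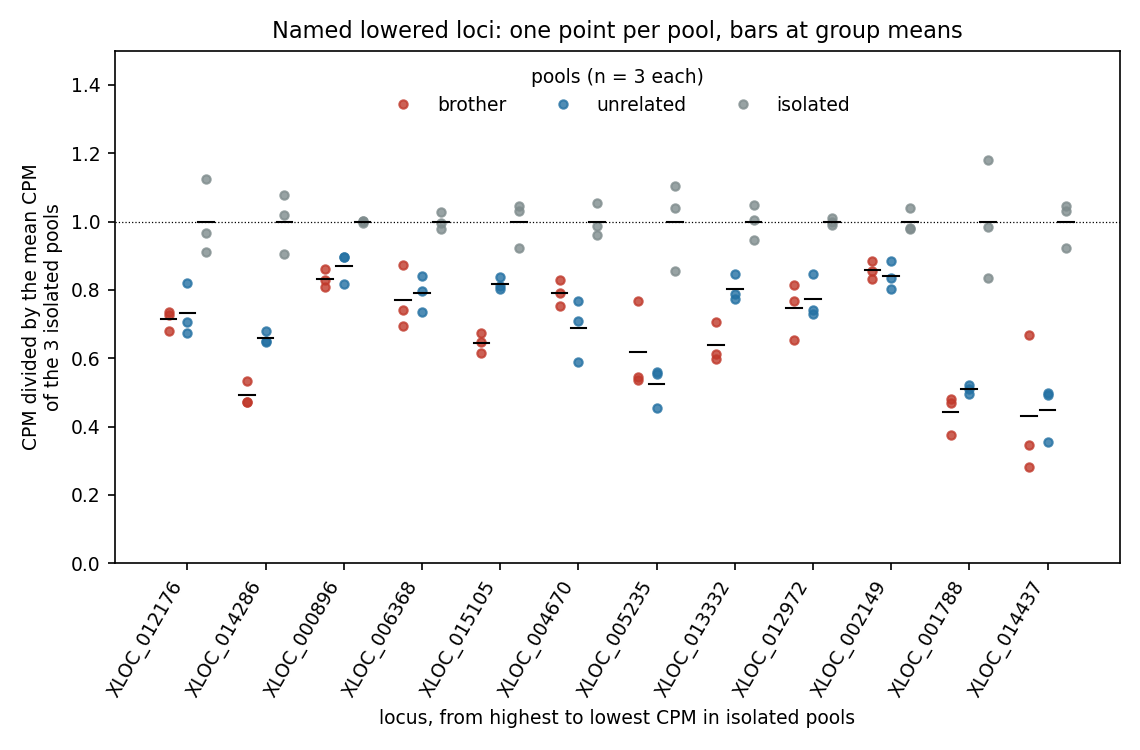
Level in each pool of 12 lowered loci named in the text, as CPM divided by the mean CPM of the 3 isolated pools, with bars at group means (n = 3 pools each). Decreases range between 14.3% and 56.8% in brother pools and between 13.1% and 55.1% in unrelated pools.

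Whether the kind of male mattered for these loci was asked by comparing brother with unrelated pools, the contrast in which both groups had met a male. No lowered locus passed the test. With edgeR (quasi-likelihood test on all 9 pools, adjusted over 15486 loci by the Benjamini-Hochberg method, threshold 0.05), 0 of 193 were called in either direction, against 0.187% of all loci tested that were lower and 0.00646% that were higher in brother pools. The smallest edgeR adjusted p among the 193 was 0.345. At an unadjusted p under 0.05, 18 of the loci (9.33%) were lower and 1 (0.518%) was higher in brother pools, beside 3.53% and 3.36% of all loci. DESeq2 also called 0, where it called 0.833% of all loci lower and 0.354% higher. Its smallest adjusted p among the 193 was nearer to the threshold, 0.0585 at XLOC_013332. limma-voom with the 18 libraries called 1, XLOC_014286, as lower (0.518%), where it called 0.323% of all loci lower and 0.117% higher.

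The differences between the courted groups were small and leaned to one side. The log2 fold change of brother minus unrelated pools had a median of -0.10 over the 193 loci, with a median SE of 0.10 and a range of -0.49 to 0.28. Over all 15486 loci the median was 0.03, and over the 8268 loci of at least 5 CPM it was 0.0055. A negative value was found at 158 of the lowered loci (81.9%) and at 48.1% of the 8268. Of all 15486 loci 43.4% were negative. Without brother pool 1 the lowered loci had a median of -0.046 with 124 negative (64.2%), and all loci tested in that fit had a median of -0.020 with 53.0% negative. Without brother pool 2 the lowered loci had a median of -0.17 with 88.1% negative, beside a median of 0.02 and 45.8% negative over all loci. No test of this lean was made, since the same ceiling chose all 193 loci.

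**Figure D4:**
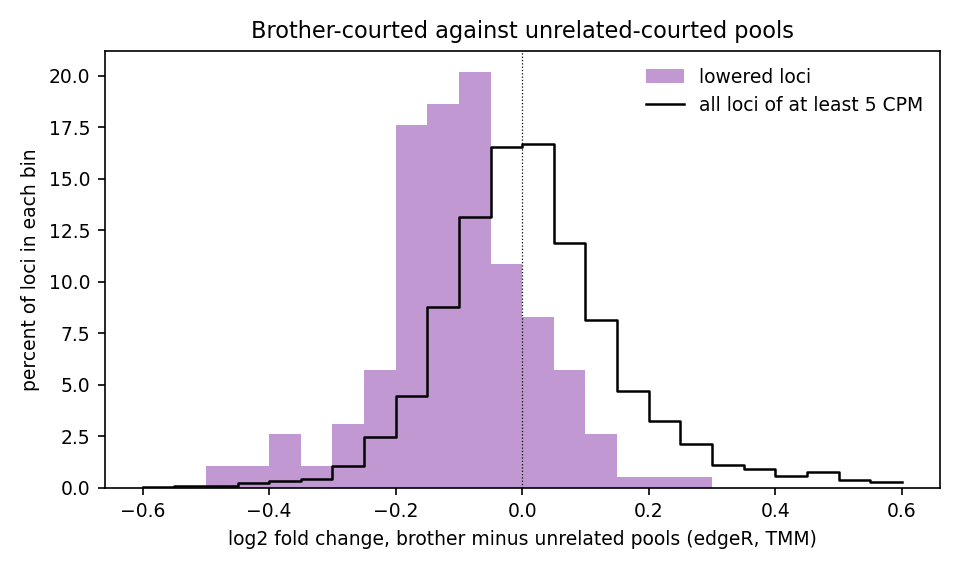
Distribution of the log2 fold change of brother minus unrelated pools (edgeR with TMM scaling) for the 193 lowered loci (bars) and for the 8268 loci of at least 5 CPM (line), as percent of loci per bin. The lowered loci lie left of 0 in 81.9% of cases and the 8268 in 48.1%, and 1.51% of the 8268 fall outside the range drawn.

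Pools of the courted groups overlapped at most of the loci. With TMM-scaled CPM, which adjust each pool for its overall composition, all brother pools lay below all unrelated pools at 30 of the 193 loci (15.5%) and above them at 3 (1.55%), where the 8268 loci gave 6.68% and 4.26%. The scaling weighs on this count. With CPM of raw pool totals, the scale used to choose the loci, the brother pools lay below at 65 loci (33.7%), beside 11.8% of the 8268. The TMM factors were 1.07, 0.932 and 0.953 in brother pools 1 to 3 and between 1.00 and 1.03 in unrelated pools, so TMM lowers brother pool 1 and raises brother pools 2 and 3 relative to raw totals. On the TMM scale the lowered loci gave 51 (26.4%) without brother pool 1, 93 (48.2%) without brother pool 2 and 63 (32.6%) without unrelated pool 3, and the 8268 loci gave 23.7%, 14.6% and 10.6% with the same pools left out. The share without brother pool 1 was thus near that of the 8268.

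Spread between pools was wider in the brother group. Over the 193 loci the coefficient of variation had a median of 8.48% in brother, 4.82% in unrelated and 4.85% in isolated pools, and over the 8268 loci it was 11.7%, 4.94% and 6.02%. Under a shared ceiling, a group with more spread has to have a lower mean to be kept, and the part of this in the lean towards lower brother values was not tested. Brother pool 1 itself was, on the TMM scale, at least 1.3-fold above both other brother pools at 9 loci (4.66%) and at least 1.3-fold below both at 12 (6.22%). In the 8268 loci these shares were 13.0% and 13.6%. The ceiling on every courted pool bears on these shares and on the coefficients of variation of the 193 loci. Lower values than in the 8268 are thus no sign that brother pool 1 was less apart at these loci.

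The loci with the smallest p in this comparison had brother means at 0.796 and 0.790 of their unrelated means on raw-total CPM. XLOC_013332 had 26.2, 22.7 and 22.2 CPM in brother pools, 28.8, 31.4 and 29.3 CPM in unrelated pools, and 37.3, 35.2 and 38.9 CPM in isolated pools. The 3 groups did not overlap, and brother minus unrelated pools differed by -0.28 ± 0.073 in log2 units (SE) at an edgeR adjusted p of 0.345. XLOC_015105 had 55.9, 53.8 and 51.1 CPM in brother pools, 66.7, 69.5 and 67.3 CPM in unrelated pools, and 86.9, 76.6 and 85.7 CPM in isolated pools. Its groups were stepped likewise, and the log2 fold change was -0.29 ± 0.076 (SE), at an edgeR adjusted p of 0.358. XLOC_014286, described above, had a log2 fold change of -0.37 ± 0.11 (SE) and an edgeR adjusted p of 0.496, and limma-voom gave it an adjusted p of 0.0338.

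In the other direction the values were weaker. XLOC_004670 had 58.5, 53.1 and 55.7 CPM in brother pools, 54.2, 41.5 and 50.0 CPM in unrelated pools, and 69.6, 74.2 and 67.6 CPM in isolated pools. The courted groups overlapped on raw-total CPM, while with TMM scaling all brother pools lay above all unrelated pools, though narrowly. The log2 fold change of brother minus unrelated pools, which uses TMM scaling, was 0.25 ± 0.097 (SE; edgeR adjusted p = 0.689). It was 0.14 without unrelated pool 2. XLOC_005235 had 40.8, 28.6 and 29.0 CPM in brother pools, 29.5, 29.8 and 24.2 CPM in unrelated pools, and 58.7, 45.5 and 55.2 CPM in isolated pools. On raw-total CPM brother pool 1 alone lay above the unrelated range, while with TMM scaling all its brother pools did, pools 2 and 3 narrowly. The log2 fold change, which uses TMM scaling, was 0.28 ± 0.14 (SE; edgeR adjusted p = 0.755). It was 0.16 without brother pool 1 and 0.18 without unrelated pool 3.

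At some loci the courted groups had almost the same level. XLOC_012972 had 17.3, 16.3 and 13.9 CPM in brother pools, 15.5, 18.0 and 15.7 CPM in unrelated pools, and 21.5, 21.2 and 21.0 CPM in isolated pools, with a log2 fold change of -0.0014 ± 0.094 (SE) between the courted groups. XLOC_006368 had 79.2, 63.0 and 67.3 CPM in brother pools, 76.3, 72.1 and 66.8 CPM in unrelated pools, and 90.2, 88.6 and 93.1 CPM in isolated pools, with a log2 fold change of 0.0056 ± 0.073 (SE). Both stood in the courted groups at 0.746 to 0.791 of their isolated means. The standard errors of the 193 loci lay between 0.061 and 0.28 on the log2 scale, and differences between the courted groups of that order could not be told from 0. Differences well above the standard error of a locus were not called either, such as -0.28 ± 0.073 (SE) at XLOC_013332 (edgeR adjusted p = 0.345). The absence of calls therefore does not exclude differences of that size.

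Without brother pool 1, which stood apart over the whole table, 6 of the 193 loci (3.11%) were lower in brother than in unrelated pools at an edgeR adjusted p under 0.05. Of the 15533 loci tested in that fit 2.15% were lower. None of the 193 was higher, beside 2.49% of all loci tested. The smallest adjusted p belonged to XLOC_004701, named after its values were seen. It had 88.4, 57.9 and 54.7 CPM in brother pools, 92.2, 88.4 and 79.1 CPM in unrelated pools, and 113, 111 and 114 CPM in isolated pools. Brother pool 1 lay within the unrelated range, while brother pools 2 and 3 lay well below it. Its log2 fold change was -0.33 ± 0.13 (SE; edgeR adjusted p = 0.686) with all pools and -0.51 ± 0.079 (edgeR adjusted p = 0.0124) without brother pool 1.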

How the data were processed

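The file that the authors deposited holds raw counts, whole numbers for each XLOC locus in each library. The submitters' processing notes name HTSeq, Cufflinks, TopHat and Trimmomatic 0.36 with no role. The sources used here give no build, annotation or strand setting. Reads shared by overlapping or near-identical loci cannot be told apart. All 18 columns were matched to samples by condition, replicate number and the letter b of the second technical replicate. Technical replicates were summed to 9 pools. Loci were tested in edgeR 4.0.16 with its quasi-likelihood F-test (R 4.3.3, filterByExpr, TMM scaling, 1 coefficient per group, Benjamini-Hochberg adjustment over 15486 loci), which kept all 193 members. The fit was tested on simulated counts. Standard errors come from dividing the size of a log2 fold change by the root of its F value. CPM are on raw pool totals unless TMM-scaled CPM are named. DESeq2 1.42.0 and limma 3.58.1 were alternatives. Counting error alone was 9.33% at the lowest member count in a pool, 115, and 2.10% at the median count of 2258, so for the weakest loci it is of the order of the margin of 1.1.

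The members and the rules for naming loci were chosen with earlier results of these data known. At most 2 loci were named for each of these: the highest isolated mean, the lowest and the highest courted level relative to isolation, the smallest p in either direction and the smallest difference (among loci of at least 20 CPM) between courted groups, and the nearest loci on each side of a threshold. Cell type markers and pathway lists need gene names and were not analysed here.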

Additional observations from a re-analysis of the deposited data

How the results depend on the processing

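The number of loci meeting the rule was 829 with no margin, 13 with the stricter margin tried and 91 where it had to hold in each technical replicate, and the construction of these alternatives sets that order. With TMM-scaled CPM 173 loci met it, 136 of them in common with the 193. Leaving out single pools gave 197 to 382, with the highest value without isolated pool 2. Leaving out a pool mostly loosens the rule, so a rise was built in, and 192 or all 193 of the loci were kept each time. The median brother level relative to isolation stayed between 0.696 and 0.728 and the unrelated one between 0.773 and 0.803, with 0.773 in the second technical replicates alone. For brother against unrelated pools, the count called among the 193 was 0 in the other alternatives, 1 with limma-voom and 0 to 6 on leaving out single pools, with 6 only without brother pool 1. The median log2 fold change was -0.16 with library sizes unscaled and -0.17 to -0.046 on leaving out single pools. The count of loci with all brother pools below all unrelated pools was 65 with CPM of raw totals, an alternative added after seeing the data like the others for this count, and 36 to 93 without single pools. The near-zero difference of XLOC_012972 changed sign to 0.016 with RLE scaling, 3.8e-05 with no filter, 0.0050 with the filter of 1 CPM in 3 pools, 0.0021 in the 6 courted pools alone, 0.11 in the second technical replicates, and 0.014 with DESeq2 and with limma-voom, and it ranged between -0.067 and 0.063 without single pools. That of XLOC_006368 changed to -0.039 with library sizes unscaled and to -0.0021 in the first technical replicates, and ranged between -0.049 and 0.062. The cause was not tested. The 4 loci named for the smallest p kept their direction in all 19 alternatives, with edgeR adjusted p (or that of the other tools) from 0.0576 to 1.00.

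In a fit with a replicate block 0 of the 193 were called and the median was -0.11. Pools with the same number had correlations of their deviations (from the mean of their group) from -0.31 to 0.19. Between groups, pools with different numbers had correlations from -0.230 to 0.355. The labels do not say that a number marks a shared family or day, so no pairing was assumed.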

Other observations

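By the mirrored rule (every courted pool at least 1.1-fold above the highest isolated pool), 59 loci were higher, beside the 193 that were lower, with CPM of raw totals. With TMM-scaled CPM the numbers were 102 higher and 173 lower, and with RLE-scaled CPM 108 and 167. Of the 193 loci, 4 carried an identifier number next to that of another of them. The sources used here do not say whether neighbouring identifiers are neighbours in the genome.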
